A study of Mus musculus with 10 samples.

Results

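Cultures of mouse cells labelled cardiomyocytes were compared between later and earlier times, with 4 libraries of polyadenylated RNA on each side. The late side held the cells that had received 5 nM TCDD for 72 h (2 libraries) or 96 h (2 libraries), and the early side held the cells labelled 24 h, given TCDD (2 libraries) or DMSO alone (2 libraries). These are 8 of the 10 libraries of the series, and the other 2 hold untreated embryonic stem (ES) cells. TCDD (2,3,7,8-tetrachlorodibenzo-p-dioxin) is a persistent ligand of the aryl hydrocarbon receptor, and DMSO is its solvent, kept at no more than 0.05% of the medium. All cells came from 1 C57BL/6 ES line that carries a plasmid joining the promoter of the heart factor gene Nkx2.5 to puromycin resistance and green fluorescent protein, beside a G418 resistance gene. They had been differentiated without leukemia inhibitory factor (LIF) by Noggin, then BMP4, then puromycin, so the cells that survived were meant to be those with an active Nkx2.5 promoter. All 4 late libraries had TCDD, and no control library was labelled 72 h or 96 h, so a longer time in culture and a longer exposure cannot be told apart. Nor do the labels say that the replicates were separate cultures, so each p-value reflects only how far these libraries spread, and that spread may be technical. In such bulk samples, fewer cells of a type and less RNA per cell cannot be told apart either.

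As background, mouse ES cells in the naive state are kept there by LIF, acting through Stat3, and by a circuit of transcription factors that includes Klf2, Klf4, Esrrb, Nr0b1, Prdm14 and Nanog. When the signal is withdrawn these genes are silenced, the formative or epiblast state follows with the growth factor Fgf5 as a marker, and Wnt and Nodal signals then induce the primitive streak, whose defining gene T encodes brachyury. Heart precursors arise from that streak. The aryl hydrocarbon receptor, bound by dioxins, pairs with Arnt and binds sites with the core GCGTG near genes for enzymes such as Cyp1a1 and Cyp1b1.

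The 8 libraries held 15326612 to 31192459 counts each. TCDD 72 h replicate 1, the shallowest, stood apart: Rn45s, which encodes the ribosomal RNA precursor, held 10.95% of its counts and 1.447 to 4.221% of those of the other 9, and the nuclear RNA Malat1 reached 2777 CPM (each gene's count scaled to a common library size) against 218 to 418 in the other late libraries. The range of its signal over transcripts ordered by GC content was 1.34 log2 units, and that of TCDD 24 h replicate 1 was 1.47, against 0.323 to 1.10 in the other 6. The label was checked against its markers. Averaged over the 8 libraries, 11 of 25 genes of the sarcomere and 11 of 25 cardiac transcription factor genes stayed under 1 CPM, while all 22 genes of the core and epiblast pluripotency list were over 10 CPM. Nkx2-5 itself ran from 1.01 to 3.66 CPM in these cells. The sarcomere list had 6 genes over 10 CPM and the cardiac factor list 4, so the cultures are called by their label although most heart muscle markers were low.

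Every late library lay above every 24 h library (no overlap) for 1170 of 15175 tested genes (7.71%), and below for 1452 (9.57%). With an adjusted p under 0.05 as well (edgeR's quasi-likelihood test, Benjamini-Hochberg adjustment over all tested genes), 116 genes rose (0.764%) and 138 fell (0.909%). These 254 genes (1.67%) are the ones said below to have risen or fallen. Their log2 fold changes ran from 0.61 to 4.13 and from -0.61 to -2.54, and 82 rises and 80 falls were at least 2-fold. The median of all tested genes was 0.05. Another 5 genes passed the test with overlapping libraries, among them Gsta3, Igfbp5 and Obox6, which were lower late, and Zfas1, which was higher. Among genes with a mean of at least 5 CPM, Ado (log2 0.12) and Dhodh (-0.51) lay just inside the no-overlap condition, and Syt11 (0.36) and Noa1 (-0.13) just outside it.

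The number of calls rested on which libraries entered the fit. The adjusted test called 259 genes (1.71%), 0 without TCDD 72 h replicate 1 or without DMSO replicate 1 (edgeR, with 2604 and 1840 genes at an unadjusted p under 0.05), and 1 to 15 without any other single cardiomyocyte library except TCDD 72 h replicate 2 (1153). It called 3853 without the 3 libraries that stood apart by GC or RNA class (replicate 2 of ES cells and replicate 1 of both TCDD 24 h and TCDD 72 h), and 258 of the 259 were among them. That fit left 1 library in each of the ES, TCDD 24 h and TCDD 72 h groups. Its spread therefore came only from the DMSO and TCDD 96 h pairs. Replicates differed least in these pairs (chi-square per gene 3.228 and 18.94, against 86.5 to 196.5 in the other groups). Counts from that setting, here and below, rest on this small spread and cannot be set beside the main counts. With the GC trend removed the adjusted test called 1431, and 255 of the 259 were shared. Against the TCDD 24 h libraries alone it called 0 (3178 at an unadjusted p under 0.05), and against the DMSO libraries alone 123. None of the 56 genes that met the naming rule and passed changed direction under any of the 29 alternatives tried. They were chosen for having no overlap between sides, so leaving libraries out could hardly reverse them, and this is not further support.

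**Figure D1:**
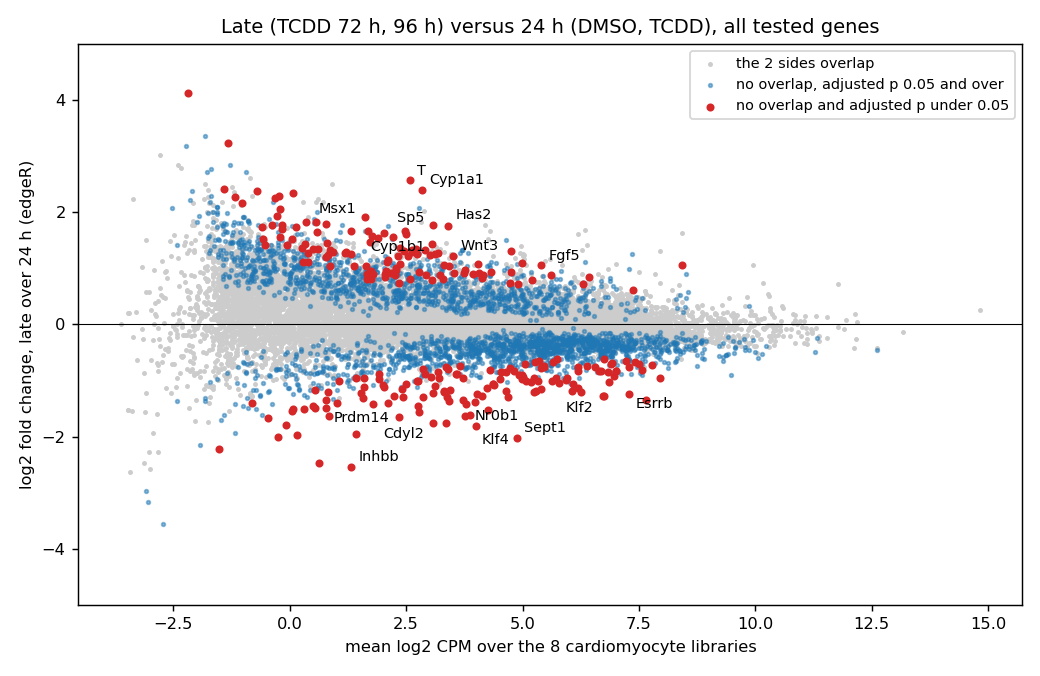
Log2 fold change of late over 24 h libraries (y axis) against the mean log2 CPM over the 8 libraries (x axis), with 1 point per tested gene. Red points are the 254 genes with no overlap between sides and an adjusted p under 0.05, blue points the other genes with no overlap and grey points the rest. T and Cyp1a1 are the highest labelled points (2.57 and 2.40) and Inhbb the lowest (-2.54).

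The naive pluripotency genes were the list with the most falls. Of 18 genes, 8 fell and 0 rose (0.929% of all tested genes passed lower), and the 4 late libraries lay below all 4 of the 24 h libraries for 12 of 18 (9.57% of all tested). The list's median log2 fold change was -0.76, and 17 of 18 values were below 0. With the GC trend removed 14 passed, all lower, where 4.39% of all tested genes did. Without the 3 libraries that stood apart 17 passed, all lower, where 13.5% of all did. The summed level of the list was 1421 to 1673 CPM in the 24 h libraries and 721 to 909 CPM in the late ones, so those ranges did not overlap.

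Klf4 (GRCm38 chromosome 4, 55527137 to 55532475), a reprogramming factor directly downstream of LIF and Stat3, stood at 40.3 and 46.1 CPM in the 2 DMSO libraries, 19.7 and 22.0 at TCDD 24 h, 9.90 and 8.02 at 72 h, and 7.94 and 8.51 at 96 h. It was highest in DMSO, intermediate at TCDD 24 h and lowest in all late libraries. The late mean was 8.59 ± 0.907 against 32.0 ± 13.1 CPM (SD, n = 4 each), a fall (log2 -1.81 ± 0.15 SE, adjusted p = 0.00601). Prdm14, a regulator of the naive state and of germ cells (chromosome 1, 13113428 to 13127163), had the same order, with 11.3 and 11.1 CPM in DMSO, 6.91 and 6.85 at TCDD 24 h, 2.92 and 3.15 at 72 h and 2.70 and 2.49 at 96 h. Its log2 fold change was -1.65 ± 0.14 SE (adjusted p = 0.00601).

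Nr0b1 (Dax1, an orphan nuclear receptor of the naive circuit, chromosome X, 86191775 to 86195947) was at 28.3 and 25.9 CPM in DMSO, 20.4 and 22.3 at TCDD 24 h, 6.22 and 8.38 at 72 h and 8.63 and 7.65 at 96 h. The drop lay mainly between 24 h and 72 h, and the fit gave -1.64 ± 0.15 SE (adjusted p = 0.00601). Esrrb, another orphan nuclear receptor (chromosome 12, 86361117 to 86521628), overlapped between the 24 h groups: it was at 248 and 238 CPM in DMSO, 257 and 214 at TCDD 24 h, 86.8 and 112 at 72 h and 105 and 100.5 at 96 h (log2 -1.24 ± 0.16 SE, adjusted p = 0.0185). Klf2, a relative of Klf4, fell from 169 ± 16.9 to 69.8 ± 7.88 CPM and Stat3, the transducer of LIF, from 43.0 ± 3.27 to 23.1 ± 1.57 CPM (SD, n = 4). Tcl1 fell from 24.9 ± 2.01 to 10.52 ± 2.06 CPM. Fgf4, the growth factor that ES cells secrete to drive their own exit from the naive state, fell least (188 ± 14.3 to 120 ± 14.0 CPM, log2 -0.65, adjusted p = 0.0462).

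Nanog lay lower in every late library but missed the threshold (398 ± 52.1 against 251 ± 38.2 CPM, SD, n = 4, log2 -0.66, adjusted p = 0.0505). Tfcp2l1 (-0.82, adjusted p = 0.0718), Socs3 (-0.71, 0.0965) and Dppa3 (-1.04, 0.100) were likewise separated without passing. Without TCDD 72 h replicate 1 the adjusted p of Klf4, Nr0b1 and Prdm14 was 0.0535, with log2 values of -1.89, -1.54 and -1.62.

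**Figure D2:**
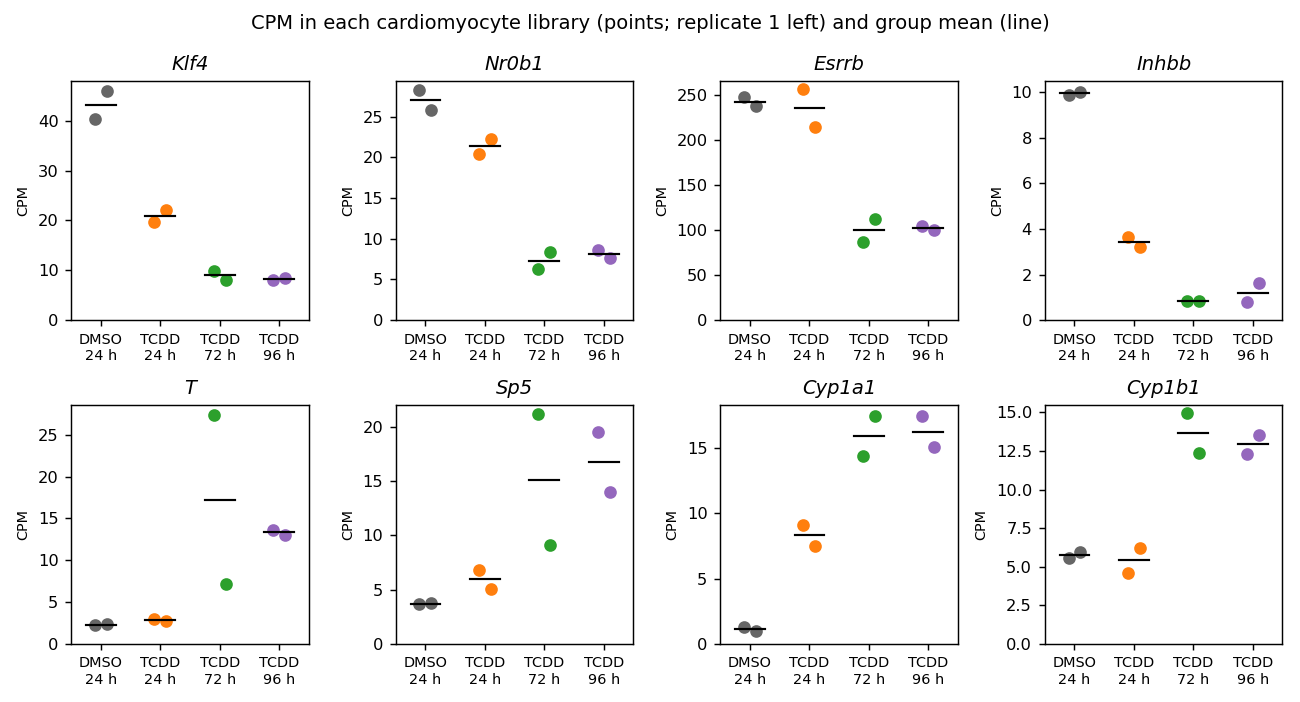
CPM of 8 genes in each library (points, replicate 1 on the left) and group means (lines) for DMSO 24 h, TCDD 24 h, TCDD 72 h and TCDD 96 h, on linear axes from 0. Klf4 and Inhbb are lower at TCDD 24 h than in DMSO and lower again late, the 24 h groups overlap for Esrrb and Cyp1b1, and for T and Sp5 the 72 h libraries are far apart.

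The core and epiblast genes did not move as a block. Of 22 tested, 1 rose and 0 fell (0.778% and 0.929% of all tested genes passed higher and lower). Without overlap 2 lay higher and 5 lower (7.71% and 9.57% of all), and the median was -0.18. Without the 3 libraries that stood apart, 5 passed higher and 12 lower, where 11.5% and 13.5% of all tested genes did. The gene that rose was Fgf5, the epiblast growth factor (chromosome 5, 98254184 to 98277033). It was at 22.9 and 23.6 CPM in DMSO, 29.7 and 44.5 at TCDD 24 h, 65.4 and 59.6 at 72 h and 56.3 and 62.2 at 96 h. No late library was below 56.3 CPM and no 24 h library above 44.5 (log2 1.05 ± 0.19 SE, adjusted p = 0.0355). Pou5f1 (Oct4), the core factor of both naive and epiblast states, overlapped between sides, at 985 to 1516 CPM against 806 to 992 CPM (log2 -0.38, adjusted p = 0.281). Sox2, its partner, was separated at 392 ± 66.9 against 244 ± 10.4 CPM (SD, n = 4) but did not pass (log2 -0.67, adjusted p = 0.0548). Pou3f1, a POU factor of the epiblast, had 171 against 213 CPM (log2 0.42, adjusted p = 0.127). Foxd3 was at 38.8 against 21.8 CPM (-0.84, adjusted p = 0.054) and the de novo methyltransferase gene Dnmt3a at 594 against 386 CPM (-0.61, 0.0966), both with no overlap.

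Primitive streak genes had the largest named rise. T (brachyury, chromosome 17, 8434423 to 8442496) was at 2.23 and 2.34 CPM in DMSO, 2.92 and 2.72 at TCDD 24 h, 27.4 and 7.14 at 72 h and 13.7 and 13.0 at 96 h. The 4 libraries at 24 h lay within 1 CPM of each other, and the late ones ranged widely, with the highest in TCDD 72 h replicate 1. The rise was 5.96-fold (log2 2.57 ± 0.39 SE, adjusted p = 0.0251), and 1.94 on the log2 scale without that library (adjusted p = 0.0535). Sp5, a zinc finger gene that Wnt signalling switches on directly (chromosome 2, 70474923 to 70477726), was at 3.64 and 3.73 CPM in DMSO, 6.80 and 5.07 at TCDD 24 h, 21.2 and 9.09 at 72 h and 19.5 and 14.0 at 96 h (log2 1.77 ± 0.28 SE, adjusted p = 0.0282). These were the 2 of 13 streak and mesendoderm genes that rose, and 0 fell (median 0.54, with 0.778% of all tested genes passing higher). Mixl1, a homeobox gene of the streak, was separated at 0.750 against 1.81 CPM without passing (log2 1.25, adjusted p = 0.0579), and Eomes overlapped (9.01 against 13.6 CPM, 0.58, adjusted p = 0.267).

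Of 42 Wnt pathway genes, 4 rose and 0 fell (0.778% of all tested genes passed higher), and the median was 0.33. Without overlap 8 lay higher and 1 lower (7.71% and 9.57% of all). With the GC trend removed 10 passed higher and 2 lower, where 5.04% and 4.39% of all tested genes passed. Part of that growth in the list's count is therefore found over all genes. Without the 3 libraries that stood apart the median was 0.15, with 15 of 42 values below 0 (12 in the main test). The list's mean log2 CPM was 4 in TCDD 72 h replicate 1, 3.49 to 3.74 in the other late libraries and 3.35 to 3.44 at 24 h. Beside Sp5, 2 ligand genes rose. Wnt3, the ligand that starts the streak in the mouse embryo, was at 6.998 and 7.12 CPM in DMSO, 8.45 and 7.10 at TCDD 24 h, 18.3 and 12.3 at 72 h and 21.3 and 17.9 at 96 h (log2 1.22 ± 0.21 SE, adjusted p = 0.035). Its RefSeq span overlaps that of Wnt9b. Wnt6 rose from 5.08 ± 1.54 to 13.9 ± 3.26 CPM (SD, n = 4, log2 1.44, adjusted p = 0.0265). The fourth was Frzb, a secreted protein that binds Wnt ligands and blocks them, which rose from 0.746 ± 0.126 to 2.69 ± 0.838 CPM (1.83, adjusted p = 0.0282). Lgr5, a receptor for R-spondins and itself a Wnt target, was separated without passing (0.315 against 0.931 CPM, 1.57, adjusted p = 0.0776), and so was the ligand Wnt7b in the other direction (29.3 against 18.2 CPM, -0.67, 0.101).

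The Wnt effectors of the TCF and LEF family bind the letters CTTTGAT. They were searched on both strands in the 250 bases before the RefSeq start (GRCm38.p6), which could be read for 87 of the 116 rises, 109 of the 138 falls and 11934 of all 15175 tested genes. They occurred in 5 of the 87 rises (5.75%: Cxcl12, Dclk1, Ms4a4d, Snhg8 and Sp5), in 1 of the 109 falls (0.917%: Hal) and in 2.35% of all. The window of Sp5 is shown because that gene is shared by the streak and Wnt lists. It covers chr2:70474673-70474922 on the plus strand, and the match, in capitals, begins 104 bases before the start.
Sp5: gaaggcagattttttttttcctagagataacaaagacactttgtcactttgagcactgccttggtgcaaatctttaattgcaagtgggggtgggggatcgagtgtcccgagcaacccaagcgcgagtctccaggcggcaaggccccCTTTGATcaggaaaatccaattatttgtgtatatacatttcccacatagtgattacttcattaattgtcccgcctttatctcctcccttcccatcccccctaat

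Of the receptor's own pathway, 3 of 14 tested genes rose and 0 fell, 6 lay higher and 2 lower without overlap, and the median was 0.38. Over all tested genes 0.778% passed higher, and 7.71% lay higher and 9.57% lower without overlap. Cyp1a1, the oxidase gene that most directly reports receptor activity (chromosome 9, 57687928 to 57703824), was at 1.25 and 0.956 CPM in DMSO, 9.14 and 7.499 at TCDD 24 h, 14.4 and 17.5 at 72 h and 17.5 and 15.1 at 96 h. All TCDD libraries exceeded both DMSO libraries, and the late ones exceeded those at 24 h. The log2 fold change of 2.40 ± 0.24 SE (adjusted p = 0.00734) mixes these steps: it was 0.96 (adjusted p = 0.172) against TCDD 24 h alone and 3.85 (adjusted p = 0.00501) against DMSO alone. TCDD 24 h against DMSO gave 2.89 (adjusted p = 0.247).

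Cyp1b1, a related oxidase (chromosome 17, 79706940 to 79715061), did not have that first step in these libraries. It was at 5.56 and 5.97 CPM in DMSO, 4.61 and 6.23 at TCDD 24 h, 15.0 and 12.4 at 72 h and 12.3 and 13.5 at 96 h (log2 1.25 ± 0.18 SE, adjusted p = 0.0233). The 24 h groups overlapped and all late libraries were higher. Arnt2, a relative of the receptor's partner, rose from 6.39 ± 1.60 to 10.8 ± 0.860 CPM (SD, n = 4, log2 0.79, adjusted p = 0.0375). Ahr, the receptor gene, was separated at 9.09 against 14.1 CPM without passing (0.66, adjusted p = 0.258), as were the receptor's repressor gene Ahrr (0.511 against 1.01 CPM, 1.01, adjusted p = 0.145) and Tiparp, a target that acts back on the receptor (40.0 against 61.5 CPM, 0.62, adjusted p = 0.35). Nqo1, a quinone reductase gene, overlapped (51.5 ± 14.4 against 77.4 ± 26.6 CPM, SD, n = 4, 0.62, adjusted p = 0.207), being at 39.7 CPM in TCDD 72 h replicate 1 and 81.0 to 102 in the other late libraries.

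The windows before the starts of the 2 oxidase genes that rose are shown for the receptor's core motif. TNGCGTG was searched first and was absent from both windows. The shorter core GCGTG was searched afterwards and is marked by capitals, as its complement CACGC in Cyp1b1. For Cyp1a1 the window is chr9:57697363-57697612 on the plus strand, with the motif from 54 bases before the start. This start is 9685 bases inside the RefSeq gene span. For Cyp1b1 it is chr17:79715062-79715311 on the minus strand, with the motif from 76 bases before the start. TNGCGTG was held by 5.75% of the readable rises, 6.42% of the falls and 6.53% of all, and GCGTG by 36.8%, 40.4% and 44.1%.
Cyp1a1: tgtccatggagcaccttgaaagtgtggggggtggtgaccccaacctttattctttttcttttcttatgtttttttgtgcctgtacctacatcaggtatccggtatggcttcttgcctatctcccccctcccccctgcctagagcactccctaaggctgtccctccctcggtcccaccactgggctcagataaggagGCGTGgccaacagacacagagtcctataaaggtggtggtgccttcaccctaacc
Cyp1b1: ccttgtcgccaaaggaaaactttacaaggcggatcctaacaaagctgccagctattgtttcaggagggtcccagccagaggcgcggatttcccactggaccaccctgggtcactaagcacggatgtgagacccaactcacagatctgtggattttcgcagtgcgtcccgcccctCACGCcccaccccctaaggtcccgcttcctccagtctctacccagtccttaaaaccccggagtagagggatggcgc

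Among growth factor genes the largest fall was that of Inhbb, which encodes the beta B subunit of activin and inhibin (chromosome 1, 119415463 to 119422248). It was at 9.90 and 10.04 CPM in DMSO, 3.65 and 3.19 at TCDD 24 h, 0.825 and 0.842 at 72 h and 0.791 and 1.62 at 96 h. The 3 levels, DMSO, TCDD 24 h and late, did not overlap (log2 -2.54 ± 0.23 SE, 5.82-fold, adjusted p = 0.00601). It was -1.77 (adjusted p = 0.0805) against TCDD 24 h alone and -3.31 (adjusted p = 0.00253) against DMSO alone. Fst, which encodes the activin antagonist follistatin, rose from 4.22 ± 0.797 to 10.7 ± 4.77 CPM (SD, n = 4, log2 1.35, adjusted p = 0.0498), and TCDD 72 h replicate 1 held its highest value, 17.6 CPM. Id1, a target of BMP signalling that blocks basic helix-loop-helix factors, rose from 36.1 ± 1.34 to 67.7 ± 18.6 CPM (0.88, adjusted p = 0.0355). These were the 3 of 35 BMP and TGF-beta genes that passed (2 higher, 1 lower, median 0.07). Of all tested genes 0.778% passed higher and 0.929% lower. Without overlap 3 BMP and TGF-beta genes lay higher and 2 lower (7.71% and 9.57% of all). Of 12 Nodal and activin genes 1 passed higher and 0 lower, and 1 lay higher and 2 lower without overlap. Nodal itself was at 145 against 137 CPM (-0.06, adjusted p = 0.89). The FGF list had Fgf5 higher and Fgf4 lower of 27, and 1 gene lay higher and 4 lower without overlap. The feedback inhibitor genes Spry4 (-0.49, adjusted p = 0.0828) and Spry1 (-0.58, adjusted p = 0.104) were separated downwards.

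The other large rises are given one by one. Has2, which makes the hyaluronan of embryonic matrix and heart valve cushions (chromosome 15, 56665627 to 56694546), was at 4.92 and 6.45 CPM in DMSO, 3.88 and 8.33 at TCDD 24 h, 29.9 and 15.8 at 72 h and 15.2 and 19.6 at 96 h (log2 1.76 ± 0.31 SE, adjusted p = 0.0391). Msx1, a homeobox gene that responds to BMP, rose from 1.62 ± 0.616 to 5.83 ± 1.02 CPM (1.92, adjusted p = 0.012). Efemp1, a fibulin of the extracellular matrix, rose from 2.81 ± 1.02 to 8.01 ± 1.82 CPM (1.56, adjusted p = 0.0108). Alox15, a lipoxygenase gene, rose from 2.00 ± 0.663 to 5.83 ± 1.201 CPM (1.58, adjusted p = 0.0153).

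Nefm, a neurofilament gene, was at 2.84 and 2.82 CPM in DMSO, 3.23 and 3.98 at TCDD 24 h, 8.95 and 7.71 at 72 h and 11.1 and 11.8 at 96 h (1.61 ± 0.16 SE, adjusted p = 0.00734). Of 14 neural genes Sox1 (1.07, adjusted p = 0.0208) and Zic1 (1.42, adjusted p = 0.0411), both transcription factors of early neural tissue, rose and Stmn2, a tubulin-binding protein gene of neurons, fell (-0.68, adjusted p = 0.0441). Over all tested genes 0.778% passed higher and 0.929% lower. Tchh, the hair follicle protein trichohyalin (1.66), Dgkk, a diacylglycerol kinase (1.53), and the antisense RNA Rab26os (1.64) were also among the 12 largest rises. Rab26os was highest in TCDD 72 h replicate 1 (11.7 CPM against 3.72 to 7.22 in the other late libraries). Reads of an antisense gene and its partner may be mixed, since no source used here gives the strand setting of the counting.

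Among the falls outside the naive list, Sept1, a septin gene (chromosome 7, 127212709 to 127232985), was at 54.12 and 53 CPM in DMSO, 77.5 and 55.2 at TCDD 24 h, 14.5 and 16.4 at 72 h and 14.6 and 13.2 at 96 h. All 4 late libraries lay within a narrow band, far under the lowest 24 h value (log2 -2.02 ± 0.21 SE, adjusted p = 0.00772). Its RefSeq span overlaps that of Mylpf, a myosin light chain gene of fast skeletal muscle, which fell as well (166 ± 14.1 to 68.8 ± 13.5 CPM, SD, n = 4, -1.28, adjusted p = 0.032). Mymx, a membrane protein gene of myoblast fusion, fell from 18.8 ± 2.71 to 5.54 ± 0.685 CPM (-1.76, adjusted p = 0.0102). In the ES libraries Mymx was at 77.2 and 127.9 CPM.

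Cdyl2, a chromodomain protein gene, was at 20.9 and 19.1 CPM in DMSO, 11.1 and 12.6 at TCDD 24 h (a difference with an adjusted p of 0.521 by edgeR), 4.00 and 4.92 at 72 h and 4.38 and 4.82 at 96 h (-1.76 ± 0.18 SE, adjusted p = 0.00734). Gjb1, which encodes the gap junction protein connexin 32, fell from 5.25 ± 1.13 to 1.38 ± 0.569 CPM (mean ± SD of 4, log2 -1.96, adjusted p = 0.035). Bcl3, an atypical member of the inhibitor of NF-kappa B family, fell from 11.8 ± 1.37 to 4.01 ± 0.720 CPM (-1.56, adjusted p = 0.0218). The keratin gene Krt42 (-1.53), the galectin gene Lgals9 (-1.41) and the integrin gene Itgal (-1.41) were the rest of the 12 largest falls.

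The next genes were chosen after their values were seen and stand for no group. Tdh, the threonine dehydrogenase gene of mouse ES cell metabolism, fell from 322 ± 35.0 to 126 ± 15.0 CPM (mean ± SD of 4, log2 -1.35, adjusted p = 0.0193) and Gldc, of glycine cleavage, from 217 ± 47.6 to 135 ± 7.87 CPM (-0.66, adjusted p = 0.0487). Alpl, whose product is the alkaline phosphatase stained in ES colonies, fell from 347 ± 32.4 to 180 ± 25.9 CPM (-0.95, adjusted p = 0.0381), and Kit, a receptor of stem and germ cells, from 43.5 ± 10.2 to 26.1 ± 1.96 CPM (-0.71, adjusted p = 0.0363). Mycn fell from 233 ± 21.8 to 142 ± 7.36 CPM (-0.71, adjusted p = 0.0424). Of the rises, Cxcl12, the chemokine that guides migrating cells, went from 28.6 ± 7.27 to 48.6 ± 2.98 CPM (0.80, adjusted p = 0.0302).

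**Figure D3:**
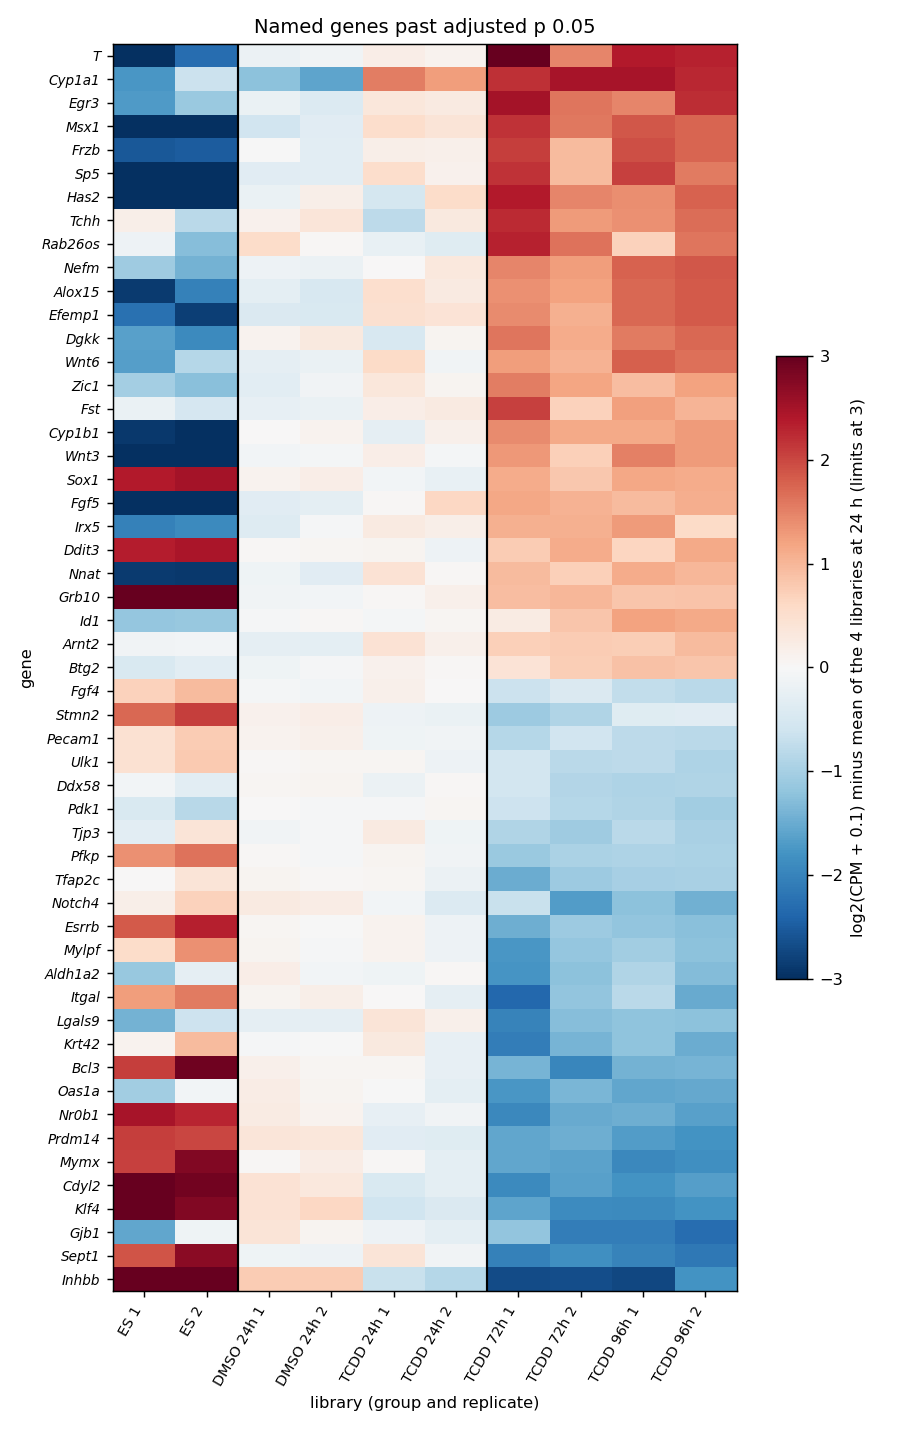
Each row is a named gene that passed and each column a library, with the colour giving log2(CPM + 0.1) minus the gene's mean over the 4 libraries at 24 h (red higher, blue lower). Lines part ES cells, 24 h and late libraries. Rows from T to Btg2 are red in all 4 late columns and rows from Fgf4 to Inhbb are blue, and ES cells are shown for reference only.

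No heart muscle structural gene passed. Of 22 tested sarcomere genes 0 passed in either direction and only Mypn was separated (1.04 against 0.600 CPM, log2 -0.80, adjusted p = 0.0796). The list had 11 values above 0 and 11 below. With the GC trend removed 1 passed in each direction, and without the 3 libraries that stood apart 5 passed higher and 1 lower, where 11.5% and 13.5% of all tested genes did. Myh6 was at 8.19 to 11.5 CPM in the 24 h libraries and 9.65 to 11.97 late (0.15, adjusted p = 0.631). Myh7 was at 6.88 to 9.78 against 2.98 to 9.98 CPM (-0.23, adjusted p = 0.686), its lowest value being in TCDD 72 h replicate 1, and Tnnt2 was under 1 CPM in all 8 libraries. Of 22 cardiac transcription factors Irx5, an Iroquois homeobox gene, rose (2.15 ± 0.432 to 4.38 ± 0.853 CPM, SD, n = 4, 1.05, adjusted p = 0.0432). Nkx2-5 was separated, at 1.01, 1.05, 1.57 and 1.09 CPM at 24 h and 1.97, 2.48, 3.66 and 2.11 CPM late, without passing (1.12 ± 0.29 SE, adjusted p = 0.0829). So were Irx3 (0.69, adjusted p = 0.0615) and Isl1 (0.2999 against 0.820 CPM, 1.39, adjusted p = 0.0886). Of the cardiac factors 1 passed higher (0.778% of all tested genes). Without overlap 4 lay higher and 0 lower (7.71% and 9.57% of all). The list's median was 0.34, and with the GC trend removed 5 passed higher, where 5.04% of all tested genes did.

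Few markers of other cell types passed. None of 15 smooth muscle, 19 mesenchymal or 33 collagen and matrix genes passed. With the GC trend removed the counts were 3 higher and 0 lower, 2 and 2, and 2 and 2, where 5.04% and 4.39% of all tested genes passed. Without the 3 libraries that stood apart the list medians were 0.30, 0.09 and 0.05 in log2 fold change. Acta2 overlapped at 199 to 285 against 72.5 to 203 CPM (-0.76, adjusted p = 0.134), again lowest in TCDD 72 h replicate 1. In the main test 0.929% of all tested genes passed lower. In each of 7 cell type lists (epithelial, endothelial, endoderm, trophoblast, epicardial, skeletal muscle and neural) 1 gene fell. Beside Mylpf and Stmn2, described above, these included Tjp3 of the tight junction (epithelial, -0.95, adjusted p = 0.0487), Pecam1 (endothelial, -0.76, 0.0355), Tfap2c (trophoblast, -1.13, 0.0193) and Aldh1a2, which makes retinoic acid (epicardial, -1.35, 0.0425). Pecam1 and Tfap2c are also expressed by ES cells, at 130 and 160 CPM and 110 and 142 CPM here. So were Mylpf (243 and 431 CPM) and Stmn2 (210 and 267 CPM) in the same ES libraries. Tjp3 was at 14.6 and 23.9 CPM there and Aldh1a2 at 1.15 and 2.16 CPM. Summed marker levels were 1731 to 2048 CPM at 24 h and 1140 to 1443 late for mesenchymal genes, 249 to 329 and 117 to 222 for skeletal muscle, 1025 to 1164 and 826 to 906 for trophoblast, 445 to 791 and 364 to 428 for endoderm, and 159 to 171 and 132 to 152 for endothelial genes. These 5 sums were lower in every late library, but a sum follows its most abundant genes. Most tested members had log2 fold changes above 0 for mesenchymal (12 of 19, median 0.05) and endoderm genes (12 of 18, 0.14). So did most endothelial genes (11 of 13, 0.25). Most were below 0 for skeletal muscle (6 of 9, -0.18) and trophoblast genes (7 of 11, -0.10). The ranges overlapped for epithelial genes, at 2101 to 3440 and 2557 to 3121 CPM, and for blood and macrophage genes, at 18.8 to 28.4 and 20.8 to 23.2 CPM. They also overlapped for neural, smooth muscle and epicardial genes. No gene of these lists was at 0 in all 8 libraries. What part a changed mix of cells had in the results above was not tested.

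Metabolic and stress lists held few calls in the main test. Of 25 glycolysis genes 2 fell and 5 were separated downwards, with a median of -0.26. Over all tested genes 0.929% passed lower and 9.57% were separated downwards. Pfkp, the platelet isoform of phosphofructokinase, was at 89.5 and 85.2 CPM in DMSO, 91.3 and 81.0 at TCDD 24 h, 39.7 and 44.8 at 72 h and 45.5 and 44.5 at 96 h (-0.99 ± 0.13 SE, adjusted p = 0.0185). Pdk1, the kinase that restrains pyruvate dehydrogenase, fell from 153 ± 4.77 to 84.9 ± 10.3 CPM (mean ± SD of 4, log2 -0.86, adjusted p = 0.0282). Of 26 lysosome and autophagy genes the autophagy kinase gene Ulk1 fell (-0.77, adjusted p = 0.0375). No gene of the cell cycle and replication list (42) or fatty acid oxidation list (23) passed, while 12 and 6 of them were separated downwards (9.57% of all tested genes), among them Ccnd3 (262 against 140 CPM, -0.91, adjusted p = 0.0576). Without the 3 libraries that stood apart, 12 cell cycle genes passed lower and 3 higher, where 13.5% and 11.5% of all tested genes did.

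Of 24 p53 target genes Btg2, an antiproliferative gene, rose (61.1 ± 4.64 to 100.8 ± 14.1 CPM, SD, n = 4, 0.72, adjusted p = 0.038) and 7 were separated upwards (7.71% of all tested genes), including Mdm2 (0.77, adjusted p = 0.25). The list's median was 0.53, and 17 passed higher and 0 lower without the 3 libraries that stood apart, where 11.5% and 13.5% of all tested genes did. Egr3, an immediate early zinc finger gene, rose from 0.231 ± 0.0800 to 1.196 ± 0.435 CPM (2.37, adjusted p = 0.032). Of 23 immediate early genes 2 passed higher and 0 lower (0.778% and 0.929% of all tested genes). Without overlap 8 of them lay higher and 3 lower (7.71% and 9.57% of all). With the GC trend removed 9 passed higher and 1 lower, where 5.04% and 4.39% of all did. Ddit3, which encodes the stress factor CHOP, rose from 2.98 ± 0.230 to 5.74 ± 0.980 CPM (0.95, adjusted p = 0.0413), the only one of 29 genes of the unfolded protein and amino acid response to pass. The rest of that list mostly had the other sign, with a median of -0.22 and 21 of 29 values below 0. Separated genes numbered 6 lower and 2 higher, where 9.57% and 7.71% of all tested genes were so. With the GC trend removed 4 of the 29 passed higher and 1 lower, where 5.04% and 4.39% of all tested genes did. The median was then -0.16. Without the 3 libraries that stood apart the median was -0.14, with 21 of 29 values below 0. Of 35 imprinted genes, expressed from 1 parental allele, 2 rose and 0 fell (0.778% and 0.929% of all tested genes). The 2 were the growth factor adaptor Grb10 (9.75 ± 0.811 to 18.3 ± 1.03 CPM, 0.91, adjusted p = 0.0202) and Nnat (19.6 ± 4.69 to 37.1 ± 4.20 CPM, 0.93, adjusted p = 0.0282). Without overlap 8 imprinted genes lay higher and 0 lower (7.71% and 9.57% of all). The list's mean log2 CPM was highest in TCDD 72 h replicate 1 (4.72 against 4 to 4.2 in the other late libraries). Of 22 interferon response genes Ddx58, the RNA sensor RIG-I (-0.82, adjusted p = 0.0355), and Oas1a (-1.63, adjusted p = 0.0282), 1 of a family of similar copies, fell. In that list 0 rose, and 0.929% of all tested genes passed lower. Without overlap 3 of the list lay lower and 0 higher, where 9.57% and 7.71% of all did. Notch4 fell from 13.1 ± 2.78 to 5.55 ± 1.81 CPM (-1.23, adjusted p = 0.0427).

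Hox genes (24 tested) had a median of 0.73, with 22 values above 0 and 6 genes separated upwards (7.71% of all tested genes), and 0 passed. Most were low, such as Hoxd1 at 0.275 against 0.781 CPM (1.49, adjusted p = 0.063). The replication-dependent histone and the nuclear and structural RNA lists had medians of 0.85 and 1.39 with 0 passing, and in both the mean log2 CPM was highest in TCDD 72 h replicate 1 (1.58 against -0.56 to -0.33 and 8.49 against 5.32 to 6.06 in the other late libraries). Malat1 and Neat1 did not pass (adjusted p = 0.23 and 0.226). The same library gave the highest late value in 56 of the 116 rises and the lowest in 61 of the 138 falls, against 6056 and 6052 of all 15175 tested genes (39.9%). Its part in the individual rises and falls was tested only by leaving it out.

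**Figure D4:**
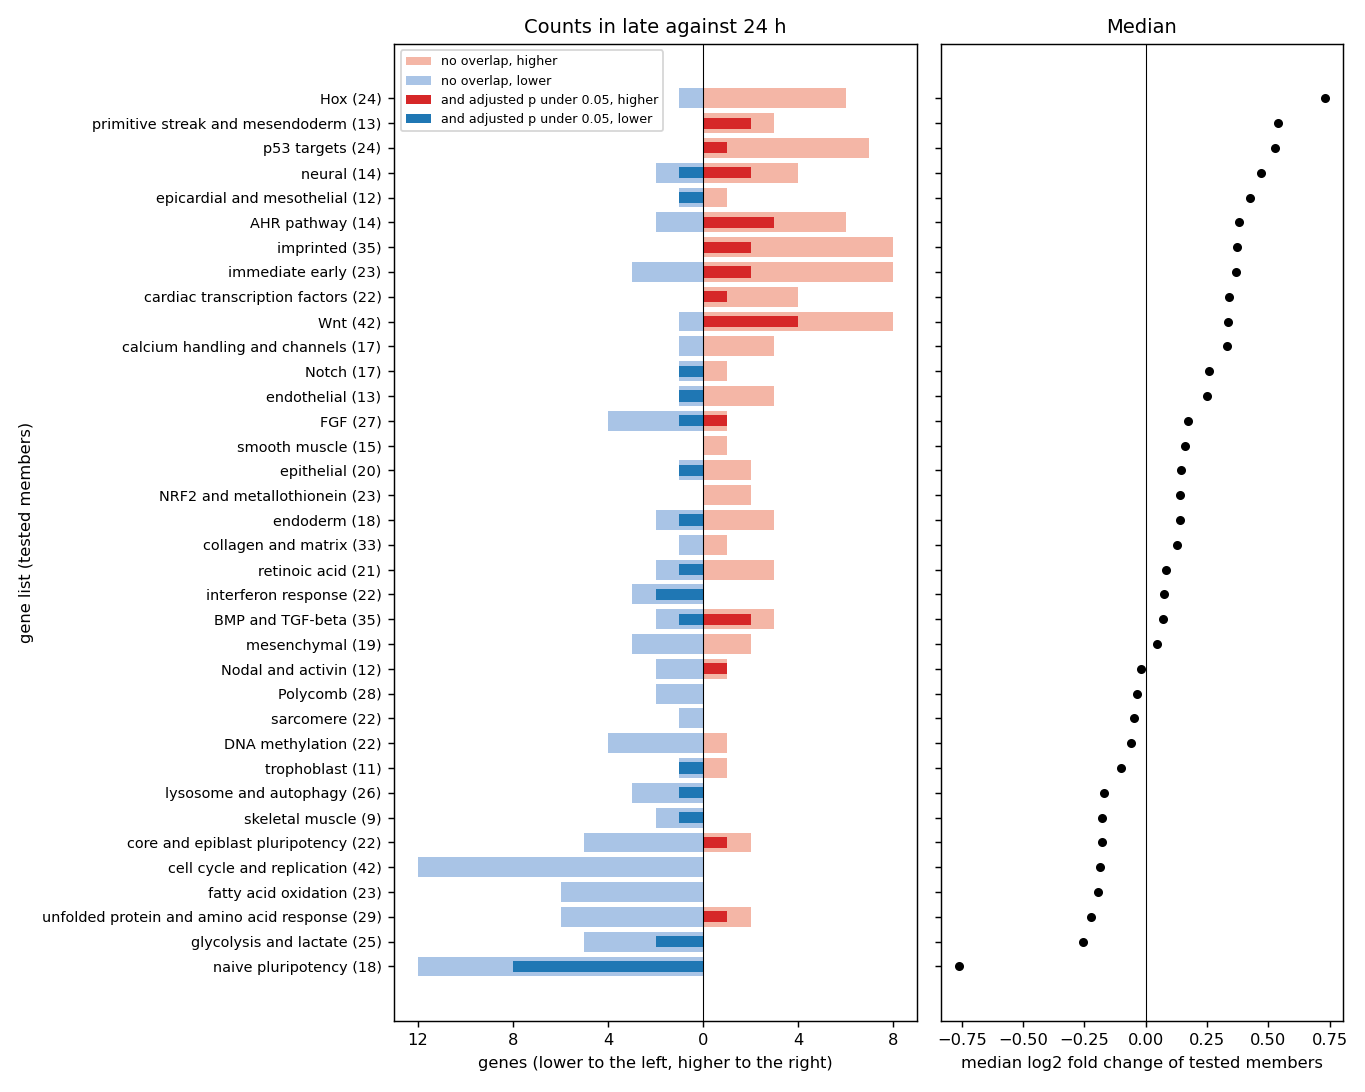
Left: for each gene list (tested members in brackets), the genes separated between sides (pale bars) and those that also passed (dark bars), higher to the right and lower to the left. Right: the median log2 fold change of the tested members. Lists not drawn include the histone and nuclear RNA lists. Naive pluripotency is at the foot with 12 separated and 8 passing lower and a median of -0.76, and Hox is at the top with 0.73 and 0 passing.

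The rises and falls differed in level and in sequence composition. The 116 rises had a median of 2.87 CPM at 24 h, 6.25 late and 0.665 in ES cells, and the 138 falls 26.8, 10.9 and 48.4 CPM. Over all tested genes these medians were 15.7, 16.3 and 15.3 CPM. Median transcript GC content was 49.7% for rises, 53.2% for falls and 50.2% for all, and GC content in the 250 bases before the start was 64.0%, 56.0% and 59.6%. The libraries differ in their GC trend, and the part of that trend in single genes was tested only by the GC offset.

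The same test was run within each side. TCDD 24 h against DMSO gave 0 calls (edgeR, 1296 at an unadjusted p under 0.05, smallest adjusted p = 0.247), and TCDD 96 h against 72 h gave 0 (710, smallest 0.935). The first of these comparisons shares its libraries with the 24 h side, so its values are given beside the late ones and not as further evidence. Klf4 was -1.05 in TCDD 24 h against DMSO (adjusted p = 0.374), Inhbb -1.54 (0.361), Prdm14 -0.71 (0.521) and Cdyl2 -0.75 (0.521), where late against 24 h they were -1.81, -2.54, -1.65 and -1.76. Esrrb was -0.04 (0.932), Cyp1b1 -0.09 (0.863) and Pfkp -0.02 (0.96), where late against 24 h they were -1.24, 1.25 and -0.99. A p over the threshold does not show that the 24 h groups were alike for these 3 genes.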

How the data were processed

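Polyadenylated RNA was read as 51 bp single reads from dUTP stranded libraries with 8 PCR cycles, per the labels' protocols. The authors deposited 1 table of raw counts by gene, whole numbers without normalization. Tools in the submitters' processing notes are bcl2fastq, CASAVA 1.8, TopHat and edgeR, and the build is mm10. Which program counted the reads, with which strand setting and annotation, is not given in the sources used. Coordinates are 1-based gene spans of RefSeq on GRCm38, found through Entrez identifiers for 24472 of 24540 named rows. An unnamed row (0.000201 to 0.00285% of counts) was left out.

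The test was the quasi-likelihood test of edgeR 4.0.16 under R 4.3.3, with TMM factors, the default expression filter (15175 genes, 61.8%) and robust dispersion, on all 10 libraries with 1 mean for each of 5 groups (5 residual degrees of freedom). The contrast was the mean of TCDD 72 h and 96 h minus the mean of TCDD 24 h and DMSO 24 h, two-sided, adjusted over all tested genes, with a threshold of 0.05. CPM used TMM-scaled library sizes. Errors are SD over the 4 libraries of a side, which hold 2 groups each, or the SE from the fit, and a prior count of 2 entered log2 CPM. Reads carried no molecular identifiers, so depth gives counting precision only. Replicates of every group differed by more than sampling noise (chi-square per gene 3.228 to 196.5 over genes with at least 50 counts). The script was tested on simulated counts.

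The cultures compared, the 45 gene lists and the rules were chosen with earlier results of these data known. The text names, among genes passing both conditions with at least 5 CPM on the higher side and without predicted or small RNA genes, the 12 largest rises and falls, then as many as 4 from every list in order of p, 17 fixed genes and the 2 genes just inside and just outside the no-overlap condition. Some genes that met this rule are not reported here. Other list members, and genes said to be chosen after their values were seen, fall outside that rule. Alternatives were RLE and upper quartile factors, no filter, 1 CPM in 2 libraries, DESeq2 1.42.0, limma-voom (limma 3.58.1), other sets of libraries, the replicate block, a GC offset (loess of span 0.3, with GC for 99.49% of tested genes), a stricter threshold, a 2-fold minimum and each library left out. Promoter sequences are from RefSeq (GRCm38.p6).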

Additional observations from a re-analysis of the deposited data

Results flagged for a closer look

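Each named gene was examined in the 4 late and the 4 earlier libraries for a library set apart from the others. Its gap to the nearest other, taken over the range of the 4, had to exceed Dixon's critical value. Chance gives that in about 1 in 20 sets drawn from 1 normal population. Each set here pools 2 groups, so that rate does not apply. Of 150 sets, 20 were so marked. In the late set, TCDD 72 h replicate 1 stood apart for Malat1 (2777 CPM, the other 3 at 218 to 418), Neat1 (259 CPM, the other 3 at 16.7 to 32), Rn45s (106500 CPM, the other 3 at 13720 to 24470) and Ddx58 (17.8 CPM, the other 3 at 13.5 to 14.1). It did so too for Pfkp (39.7 CPM, the other 3 at 44.5 to 45.5), Lgals9 (5.58 CPM, the other 3 at 9.31 to 9.75) and Gjb1 (2.22 CPM, the other 3 at 0.979 to 1.15). TCDD 72 h replicate 2 stood apart in the late set for Sox1 (6.21 CPM, the other 3 at 7.62 to 7.84) and Bcl3 (2.93 CPM, the other 3 at 4.35 to 4.38). TCDD 96 h replicate 2 stood apart in that set for Arnt2 (12.1 CPM, the other 3 at 10.3 to 10.6) and Inhbb (1.62 CPM, the other 3 at 0.791 to 0.842). In the 24 h set, TCDD 24 h replicate 1 stood apart for Wnt6 (7.37 CPM, the other 3 at 4.07 to 4.6), Wnt3 (8.45 CPM, the other 3 at 7 to 7.12), Nkx2-5 (1.57 CPM, the other 3 at 1.01 to 1.09) and Noa1 (48.5 CPM, the other 3 at 37.2 to 37.3). It did so too for Sept1 (77.5 CPM, the other 3 at 53 to 55.2). TCDD 24 h replicate 2 stood apart in the 24 h set for Acta2 (199 CPM, the other 3 at 275 to 285), Ulk1 (184 CPM, the other 3 at 208 to 212) and Tfap2c (96.6 CPM, the other 3 at 111 to 114). DMSO replicate 2 stood apart there for Ahrr (0.765 CPM, the other 3 at 0.399 to 0.458). TCDD 72 h replicate 1 was also the library with 10.95% of counts on Rn45s. Among these genes, leaving it out changed the direction of Rn45s alone, and its part in the other values was not tested further.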

How the results depend on the processing

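All directions of the 56 genes that met the naming rule and passed held under the 29 alternatives tried. For smaller sets of libraries this follows from the choice of genes with no overlap, so it does not measure stability. Genes with no overlap numbered 2622, and 2411 to 3245 when the scaling, filter, tool, threshold, block, ES libraries or GC offset changed. Comparing fewer libraries gave 5992 (24 h side of TCDD alone), 5851 (DMSO alone), 4687 (72 h alone), 4980 (96 h alone) and 5502 (3 libraries removed), since fewer libraries have to be separated, and 2668 to 3973 with each library left out in turn. The number past the adjusted p (259) and the number that also had no overlap (254) moved much more. They were 467 and 433 with no filter, 748 and 634 by DESeq2, 1311 and 1101 with the 8 cardiomyocyte libraries in 4 groups, 606 and 604 in 2 groups, 0 and 0 against TCDD 24 h alone, 123 and 123 against DMSO alone, 6 and 6 for 72 h alone, 18 and 18 for 96 h alone, 1431 and 1280 with the GC offset, 730 and 686 with that offset and the replicate block, 3853 and 3374 without the 3 libraries, 9 and 9 at 0.01 and 166 and 162 with a 2-fold minimum. With the GC offset on 8 libraries, chosen after seeing the data, they were 2234 and 1840. Leaving out each library in turn gave 0 to 1291 and 0 to 1089. The higher share of calls was 45.6%, against 35.0% with the block, 16.7% for 72 h alone, 22.2% at 0.01, 55.7% with the GC offset on 8 libraries, 65.6% without TCDD 72 h replicate 2 and 0.0 to 13.3% in the leave-one-out settings with 15 or fewer calls. With the replicate number as a block, edgeR called 20 and 20 genes. Deviations of same-numbered libraries correlated at -0.215 to 0.448, with 2 of 6 pairs of groups over 0.1. Whether same-numbered samples shared more than a number was not tested. Reversed values occurred in 4 fixed genes that had not passed. Rn45s was -0.049 against TCDD 24 h alone, -0.69 for 96 h alone, -0.63 without the 3 libraries and -0.45 without TCDD 72 h replicate 1. Myh6 was -0.021 against TCDD 24 h alone. Myh7 was 0.084 for 96 h alone, 0.14 without the 3 libraries and 0.054 without TCDD 72 h replicate 1. Tnnt2 was 0.10 against TCDD 24 h alone, 0.026 without the 3 libraries and 0.001 without DMSO replicate 2. With each library left out in turn, Rn45s ranged from -0.454 to 0.594, Myh7 from -0.749 to 0.054 and Tnnt2 from -0.621 to 0.001. Apart from the smaller sets of libraries, the cause was not tested. A group left with 1 library takes its spread from the rest. Genes under 1 CPM, such as Tnnt2, rest on few reads.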
